A study of Mus musculus with 8 samples.

Results

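The 9 genes described here (Gfra1, Ret, Etv5, Lhx1, Bcl6b, Id4, Zbtb16, Eomes and Nanos2) are expressed by undifferentiated spermatogonia, the cells of the testis that include the spermatogonial stem cells. They were chosen by name, with earlier results of these data known, and all 9 had a row among the 54532 genes of the expression table. The comparison asked whether their mRNA differed in synchronized testes after the Spdya gene, which encodes the telomere-bound meiotic regulator Speedy A, had been targeted. The control group (Sync-Spdya fl/fl) consisted of 4 Spdyafl/fl mice without Cre, and the cKO group (Sync-Spdya cKO) of 4 Spdyafl/fl;Ddx4-CreERT2 mice. Both groups were juvenile males whose spermatogenesis had been synchronized with the retinoic acid synthesis inhibitor WIN followed by retinoic acid (RA). Both groups also received tamoxifen on RA7.5 and RA8.5 by the sample labels, counted in days after retinoic acid, and whole testes were taken at RA11.5, when most spermatocytes were in mid-late pachynema. The Cre is driven by Ddx4, a gene active in the germ line, and is found in the cKO group alone, so that the deletion and the presence of Cre cannot be told apart.

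Spermatogonial stem cells lie on the basement membrane of the seminiferous tubule and depend on GDNF, a growth factor released by Sertoli and peritubular cells. GDNF binds GFRA1 on the spermatogonial surface, the complex activates the receptor tyrosine kinase RET, and the signal keeps transcription factor genes such as Etv5, Bcl6b, Lhx1 and Id4 active. WIN blocks the retinoic acid synthesis that spermatogonia need to differentiate, which holds them in the undifferentiated state until retinoic acid is given.

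No member was called different between the groups. A gene was called when its adjusted p in limma was below 0.05 and its log2 fold change was above 1 in either direction. The study's filter, protein-coding genes with a mean above 1 FPKM (fragments per kilobase of gene, scaled to the sequenced total) in both groups, kept 12141 genes, of which 2 were called (0.0165%). It kept 6 members (Id4, Zbtb16, Ret, Etv5, Gfra1 and Bcl6b). A wider filter, protein-coding genes with a mean above 0.1 FPKM over the 8 libraries, kept all 9 members among 15937 genes, of which 2 were called (0.0125%). Etv5 and Lhx1 were the members at an unadjusted p below 0.05, both with higher values in the cKO group, against 6.23% of all genes of the wider fit with higher cKO values at that level and 4.86% with lower values. For both genes the control and cKO values did not overlap, which held with higher cKO values for 3.78% of all genes tested. The log2 fold change of cKO over control was above 0 for 6 of the 9 members, with a median of 0.10, against a median of 0.02 over all genes and a share of 53.6% of genes above 0. Fold changes are on the log2(FPKM + 0.1) scale, which understates the change of genes near 0.1 FPKM.

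The libraries held 13978342 to 17867570 fragments in the control group and 15494873 to 19583091 in the cKO group, recovered from the FPKM values. Control replicate 1 stood apart, with a mitochondrial share of 0.464% of fragments against 2.97% to 3.39% in the other controls and 2.20% to 3.74% in the cKO libraries. Counts and medians of gene lists that moved without it are given beside the lists. In the fit without it the median log2 fold change over all genes was 0.04. The share of all genes at an unadjusted p below 0.05 was not counted in that fit, so its list counts have no such reference. Spdya itself did not pass the test over its whole length, with a mean ± SD of 21.3 ± 1.76 FPKM in controls and 24.1 ± 5.45 FPKM in cKO testes (n = 4 each, log2 fold change 0.15, SE 0.16, adjusted p = 0.787, limma). The exons removed by Cre cannot be read from whole-gene FPKM, so this value does not check the deletion. Ddx4 was at 225 ± 26.2 FPKM in controls and 200 ± 36.2 FPKM in cKO testes (adjusted p = 0.740, limma).

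Levels per kilobase spanned a wide range among the members. By mean FPKM over the 8 libraries the order was Id4, Zbtb16, Ret, Etv5, Gfra1, Bcl6b, Lhx1, Nanos2 and Eomes. Within groups, Etv5 had the higher mean than Ret in cKO testes, and Nanos2 the higher mean than Lhx1 in controls. Neighbours whose ranges overlapped were Ret and Etv5 in both groups, Lhx1 and Nanos2 in both groups, Gfra1 and Bcl6b in controls, and Nanos2 and Eomes in cKO testes.

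**Figure D1:**
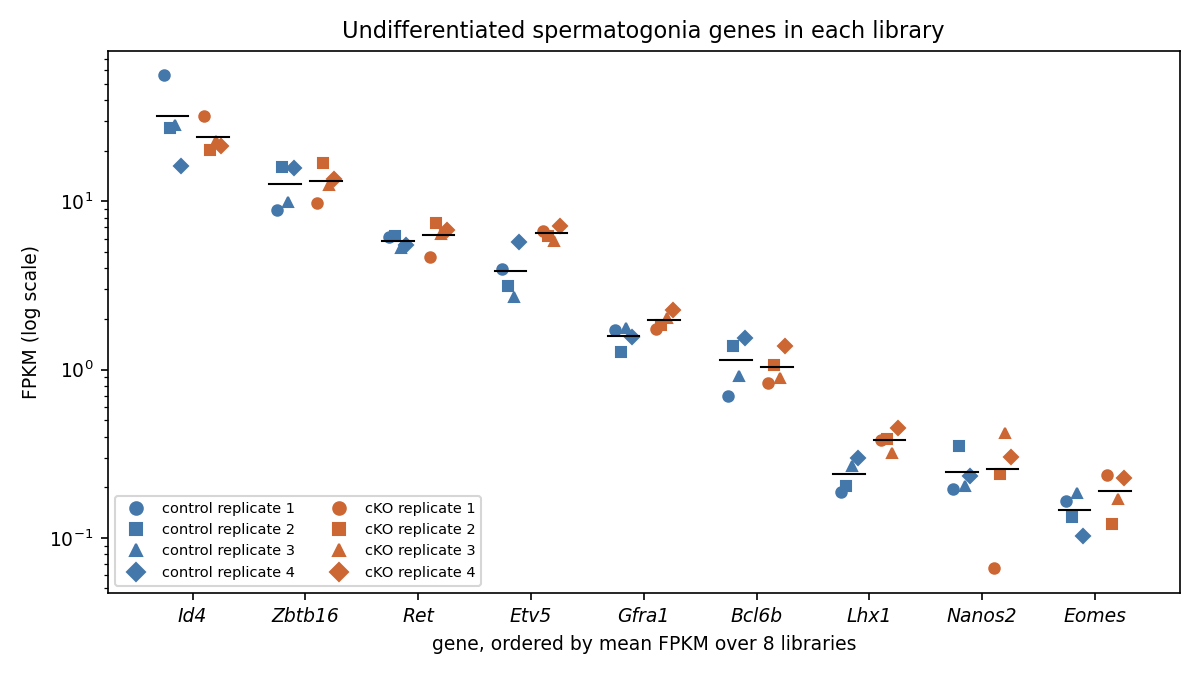
FPKM (log scale) of the 9 members in each of the 4 control (blue) and 4 cKO (orange) libraries, with symbols for replicates and black bars for group means. The groups are separate for Etv5 and Lhx1 and overlap for the other members, and Id4 in control replicate 1 stands at 56.1 FPKM.

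The GDNF receptors came first in the pathway. Gfra1, which encodes the GDNF-binding co-receptor and marks stem and progenitor cells, lies on chromosome 19 (GRCm38, 58235604 to 58455909, minus strand). Its levels were 1.71, 1.27, 1.76 and 1.57 FPKM in control replicates 1 to 4. In cKO replicates 1 to 4 they were 1.75, 1.84, 2.04 and 2.25 FPKM. The ranges overlapped by 1 cKO library, since 3 of the 4 cKO values lay above every control. The means were 1.58 ± 0.223 and 1.97 ± 0.220 FPKM (SD, n = 4), a log2 fold change of 0.31 (SE 0.16, 95% confidence interval -0.05 to 0.66) that did not pass the test (adjusted p = 0.538, limma). These values rest on 123 to 151 fragments per control library and 161 to 209 per cKO library.

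Ret encodes the receptor tyrosine kinase that transmits the signal (chromosome 6, 118151745 to 118197718, minus strand). It was the least variable member among the controls, at 6.15, 6.24, 5.25 and 5.50 FPKM. The cKO libraries had 4.64, 7.39, 6.37 and 6.73 FPKM. The cKO group held both the lowest and the highest of the 8 values. The log2 fold change of 0.10 (SE 0.15, 95% interval -0.23 to 0.43) did not pass the test (adjusted p = 0.851, limma). The ratio of Gfra1 to Ret FPKM ran from 0.203 to 0.336 in controls and from 0.249 to 0.377 in cKO testes, so the pair of receptor genes kept overlapping proportions.

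Etv5, an ETS-family transcription factor gene activated by GDNF and FGF signalling and needed for stem cell self-renewal, showed the largest difference of the 9 members. It is also expressed by Sertoli cells. The gene lies on chromosome 16 (22381309 to 22439719, minus strand). The bases just upstream of its annotated 5′ end are shown because Etv5 had the largest difference. They belong to the RefSeq promoter table for GRCm38.p6, which matched 6 of the 9 members, and lie at chr16:22439720-22439820, minus strand, positions -250 to -150 from the start site. Capitals mark E-boxes (CANNTG, the binding motif of basic helix-loop-helix factors, the class that ID4 inhibits).
Etv5 upstream: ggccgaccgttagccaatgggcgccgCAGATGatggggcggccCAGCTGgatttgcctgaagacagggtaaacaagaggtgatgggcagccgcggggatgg
This window of 101 bases held 2 E-boxes, read on both strands, and 36.5% of all 32851 promoters held at least 1 in the same window. It held no ETS core (CCGGAA, in 3.28% of promoters) and no EGR site (GCGTGGGCG, in 0.107%). The table holds a second Etv5 promoter inside the gene (start site 22438368), and the 250 bases before that start site held no E-box, where 66.2% of promoters hold at least 1. A match of letters is a description and not a measured binding site.

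Etv5 levels were 3.94, 3.12, 2.70 and 5.76 FPKM in control replicates 1 to 4. They were 6.70, 6.21, 5.80 and 7.18 FPKM in cKO replicates 1 to 4. Every cKO library was above every control library, but the margin between control replicate 4 and cKO replicate 3 was narrow. The exact Poisson 95% interval of control replicate 4 (387 fragments) ran from 5.20 to 6.36 FPKM and that of cKO replicate 3 (401 fragments) from 5.24 to 6.39 FPKM, and such intervals cover counting error only. The means were 3.88 ± 1.35 and 6.47 ± 0.598 FPKM (SD, n = 4), a ratio of 1.67. On the log2 scale the difference was 0.78 (SE 0.21, 95% interval 0.31 to 1.24), with an adjusted p = 0.229 (limma, study's filter). With limma weights that lower the influence of variable libraries, Etv5 had a log2 fold change of 0.86 in the wider fit and an adjusted p = 0.0345, and it was the only member below 0.05 in any alternative. Over the genes of the study's filter, the lowest weights fell on control replicates 1 (0.161) and 4 (0.450). With such weights 57 genes were called under that filter, against 2 without them.

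Relative to Ret, Gfra1 and the Sertoli markers of the same library, Etv5 was higher in every cKO library than in 3 of the 4 controls, and the groups overlapped through control replicate 4. The ratio of Etv5 to Ret was 0.50 to 1.05 in controls and 0.841 to 1.44 in cKO testes, and the ratio to Gfra1 was 1.53 to 3.66 and 2.85 to 3.82. Per 1000 FPKM of 10 summed Sertoli markers, Etv5 had 2.29 to 4.26 FPKM in controls and 3.58 to 4.36 FPKM in cKO testes. Most of that sum came from the gene Clu, so this ratio mainly sets Etv5 against Clu. Clu was at 718 to 940 FPKM in controls and 991 to 1188 FPKM in cKO testes, without overlap.

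Lhx1, a LIM homeobox gene that is among the GDNF-responsive genes of stem cell cultures, lies on chromosome 11 (84518284 to 84525535, minus strand). Its upstream bases are given for comparison with Etv5, since these were the members whose groups were separate. The stretch lies at chr11:84525536-84525659 on the minus strand (RefSeq, GRCm38.p6), positions -125 to -2 from the start site.
Lhx1 upstream: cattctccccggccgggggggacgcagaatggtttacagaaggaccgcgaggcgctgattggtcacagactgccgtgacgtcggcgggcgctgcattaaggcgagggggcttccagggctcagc
Its 124 bases held no E-box (41.4% of promoters hold one there), no ETS core (8.26%) and no EGR site (0.371%).

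Lhx1 was measured at 0.187, 0.203, 0.267 and 0.30 FPKM in the controls. In the cKO libraries it was at 0.380, 0.384, 0.320 and 0.448 FPKM. All cKO libraries lay above all control libraries, at a level near the pseudocount. The counts behind these values were 10, 15, 17 and 20 fragments in controls and 30, 25, 22 and 31 in cKO testes, and the counting intervals of the highest control (0.183 to 0.463 FPKM) and the lowest cKO library (0.201 to 0.485 FPKM) overlapped widely. The ratio of the group means (0.239 ± 0.0530 and 0.383 ± 0.0523 FPKM, SD, n = 4) was 1.60. The log2 fold change was 0.52 (SE 0.21, 95% interval 0.04 to 0.99) and did not pass the test (adjusted p = 0.419, limma, wider filter).

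Bcl6b, a transcriptional repressor gene that responds to GDNF, did not follow Etv5 and Lhx1 (chromosome 11, 70224128 to 70229798, minus strand). Its levels were 0.698, 1.38, 0.912 and 1.54 FPKM in controls. The cKO levels of 0.832, 1.06, 0.893 and 1.38 FPKM all lay inside the control range. The log2 fold change was -0.08 (SE 0.27, 95% interval -0.67 to 0.52, adjusted p = 0.942, limma), an interval that leaves room for a difference in either direction.

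Id4 encodes an inhibitor of basic helix-loop-helix factors and marks stem cells at the top of the hierarchy, although other testis cells express it too. It was the most abundant member (chromosome 13, 48261228 to 48266026, plus strand). Control levels were 56.1, 27.3, 28.4 and 16.3 FPKM. The cKO levels were 32.1, 20.2, 22.8 and 21.4 FPKM. Control replicate 1, the library with the low mitochondrial share, had the highest value, and the controls spanned both ends of the range. The log2 fold change of -0.29 (SE 0.32, 95% interval -1.0 to 0.41, adjusted p = 0.796, limma) was 0.03 without control replicate 1. The part of that library in the result was otherwise not tested.

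Zbtb16 encodes PLZF, the zinc finger repressor that maintains the undifferentiated pool and is expressed throughout it (chromosome 9, 48654297 to 48836222, minus strand). It had 8.91, 16.1, 9.88 and 15.8 FPKM in controls. It had 9.73, 16.9, 12.5 and 13.7 FPKM in cKO testes. The groups covered nearly the same range, with means of 12.7 ± 3.80 and 13.2 ± 2.95 FPKM (SD, n = 4). This was a log2 fold change of 0.08 (SE 0.23, 95% interval -0.43 to 0.59, adjusted p = 0.927, limma). The ratio of Id4 to Zbtb16 ran from 1.03 in control replicate 4 to 6.29 in control replicate 1, and from 1.20 to 3.30 in cKO testes.

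Eomes, a T-box factor gene found in a subset of GFRA1-positive cells, and Nanos2, which encodes the RNA-binding protein that represses differentiation, were the members with the fewest fragments. Eomes (chromosome 9, 118478212 to 118486132, plus strand) had 0.165, 0.133, 0.185 and 0.103 FPKM in controls. It had 0.236, 0.121, 0.171 and 0.227 FPKM in cKO testes, from 8 to 19 fragments a library. The groups overlapped, and the log2 fold change of 0.22 (SE 0.25, 95% interval -0.33 to 0.77) did not pass the test (adjusted p = 0.796, limma, wider filter). Eomes is also a gene of T and NK cells, and the summed level of 7 of their markers was 0.670 to 0.845 FPKM in controls and 0.647 to 0.919 FPKM in cKO testes. The antisense gene Gm33460, which overlaps Eomes, reached 0.117 FPKM, and whether reads were assigned by strand is not given in the sources used here.

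Nanos2 (chromosome 7, 18987400 to 18988962, plus strand) had 0.195, 0.353, 0.205 and 0.234 FPKM in controls. It had 0.0660, 0.240, 0.417 and 0.301 FPKM in cKO testes. The cKO libraries held both the lowest and the highest value, resting on 2 and 11 fragments. A difference was not detectable at this depth (log2 fold change -0.05, SE 0.35, 95% interval -0.83 to 0.72, adjusted p = 0.969, limma, wider filter).

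**Figure D2:**
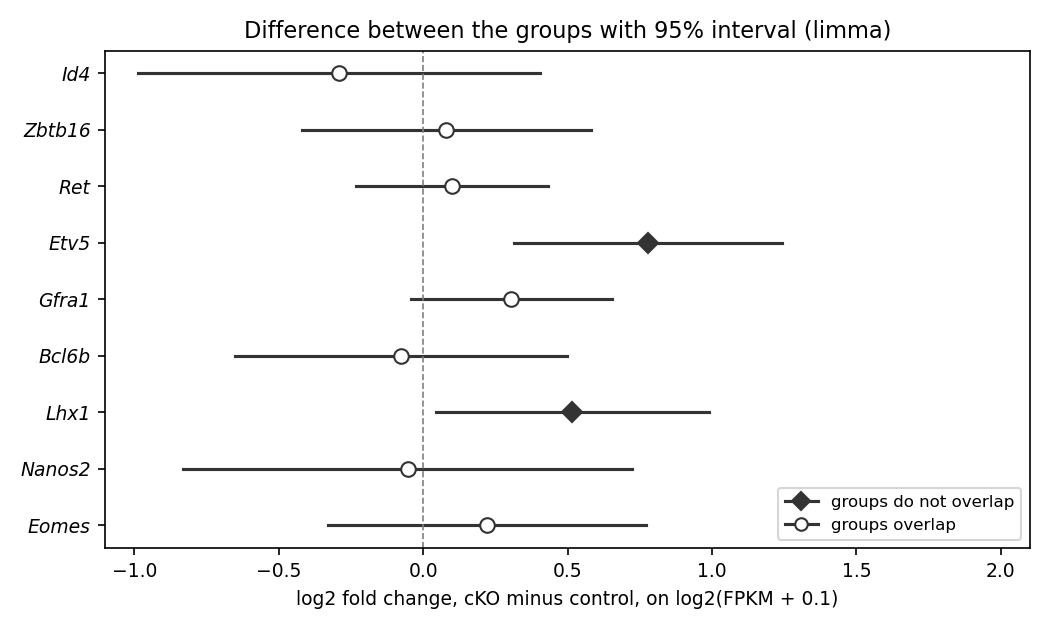
Log2 fold change of cKO over control on log2(FPKM + 0.1) for each member, with the 95% interval of limma's wider fit (15937 genes, 4 libraries a group). Filled diamonds mark Etv5 and Lhx1, whose groups do not overlap and whose intervals lie above 0, and open circles mark the members whose groups overlap.

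Whole testis was measured, so fewer cells of a type and less RNA per cell cannot be told apart for any of these genes. Levels of the members were compared with Gfra1 across the 8 libraries as a description of whether they varied together. Of 8 relations none had an adjusted p below 0.05. Lhx1 was the closest (Pearson r = 0.70, exact permutation p = 0.0454, adjusted 0.363; Spearman coefficient 0.74, exact permutation p = 0.0458, adjusted 0.367), and r was 0.28 without the 2 libraries farthest from the median of Gfra1 and 0.30 for deviations from the group means. Those 2 libraries were control replicate 2 and cKO replicate 4, without which the range of Gfra1 is narrower and the relation did not hold. Among 12135 other genes, those most like Gfra1 were Col6a2 (r = 0.98), which encodes a chain of type VI collagen, Arhgap17 (r = 0.95) and Smtnl2 (r = 0.95). They are the extremes of many correlations over 8 libraries, of which 14 had r above 0.9. Their relation to Gfra1 was not tested, nor was r taken without the 2 farthest libraries. The members were left out of this search, so it does not rank them against these genes.

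Other genes of undifferentiated spermatogonia were examined as a list of 28, of which 27 passed the wider filter. None was called. Of the 27, 19 had a log2 fold change above 0, 3 were at an unadjusted p below 0.05 with higher cKO values, and none was at that level with lower values. The median log2 fold change was 0.07, near the 0.02 of all genes. Those 3 genes were T, Etv4 and Itga6. Without control replicate 1, 17 of the 27 were above 0, 4 were at that level with higher values, and the median was 0.13.

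T, which encodes the T-box factor brachyury and is a target of GDNF signalling and ETV5, had 0.527, 0.334, 0.221 and 0.290 FPKM in controls and 0.668, 0.406, 0.768 and 0.916 FPKM in cKO testes. The groups overlapped through cKO replicate 2 (log2 fold change 0.83, SE 0.28, adjusted p = 0.330, limma). Etv4, which encodes another ETS factor of the same subfamily as ETV5, had 0.860, 1.07, 0.701 and 0.924 FPKM in controls and 1.11, 1.21, 1.11 and 1.44 FPKM in cKO testes. Its groups did not overlap, as for Etv5, at a smaller log2 fold change of 0.42 (SE 0.18, adjusted p = 0.431, limma). Itga6, an integrin subunit gene used to enrich stem cells and also expressed by other cells, differed by 0.37 (SE 0.16, adjusted p = 0.445, limma) with overlapping groups.

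Among the genes of ligands, their receptors and other niche signals none was called. Of 21 genes, 14 had a log2 fold change above 0, with a median of 0.06, and 4 were at an unadjusted p below 0.05 with higher and 1 with lower cKO values. Csf1, the macrophage growth factor gene, had 0.968, 1.22, 0.909 and 1.28 FPKM in controls and 1.76, 1.77, 1.52 and 2.42 FPKM in cKO testes, without overlap (log2 fold change 0.71, SE 0.19, adjusted p = 0.217, limma). Its receptor gene Csf1r did not overlap either (0.72, SE 0.22, adjusted p = 0.278), and Lif, a cytokine gene, overlapped (0.94, SE 0.34, adjusted p = 0.358, limma). None of these passed the test. The gene at that level with lower cKO values was Gfra4, a co-receptor for another GDNF-family ligand (-0.56, SE 0.25, adjusted p = 0.446, limma), and it was named after its values were seen. Without control replicate 1, none of the 21 genes was at that level with lower values, 4 were with higher values, and the median was 0.17.

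Gdnf, the ligand of the GFRA1-RET complex, was singled out after its values were seen. It had 1.83, 1.95, 1.08 and 2.54 FPKM in controls and 2.44, 2.45, 2.42 and 3.57 FPKM in cKO testes. The groups overlapped through control replicate 4, the control library that was also highest for Etv5 (log2 fold change 0.57, SE 0.24, adjusted p = 0.435, limma). The lowest Gdnf value fell in control replicate 3, where Etv5 was lowest too, and the highest of both fell in cKO replicate 4.

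**Figure D3:**
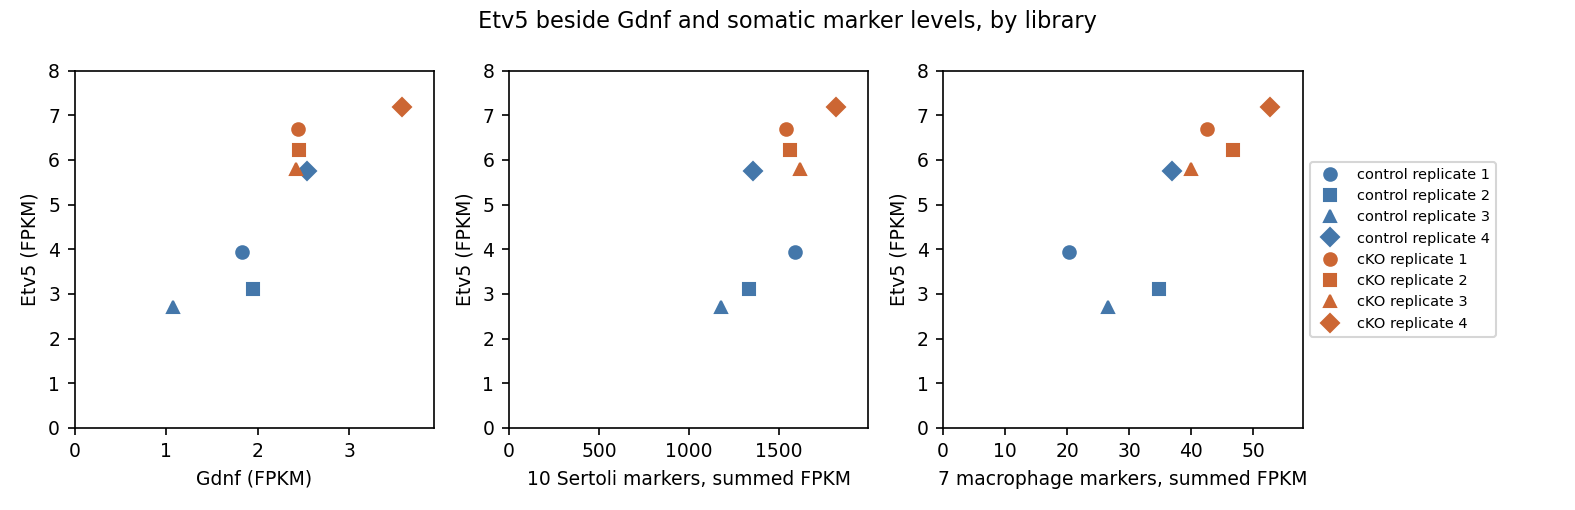
Etv5 FPKM (vertical axis) in each library against Gdnf FPKM, the summed FPKM of 10 Sertoli markers and the summed FPKM of 7 macrophage markers (horizontal axes, linear, from 0). Control replicate 4 (blue diamond, Etv5 5.76 FPKM) lies next to cKO replicate 3 in the Gdnf panel, and cKO replicate 4 is the highest library in every panel.

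Downstream of RET, the adaptor, kinase and RAS-MAPK genes did not reach the thresholds either. Of 21 tested genes of a list of 22, 14 had a log2 fold change above 0, the median was 0.02, equal to that of all genes at this precision, and none was at an unadjusted p below 0.05. The 3 with the lowest p were the adaptor gene Grb2 (0.24, SE 0.12, adjusted p = 0.502), the ERK gene Mapk3 (0.25, SE 0.13) and the PI3 kinase subunit gene Pik3r1 (0.38, SE 0.20, adjusted p = 0.532, limma). Without control replicate 1, 1 of 22 tested genes was at an unadjusted p below 0.05, with a higher cKO value. A list drawn up after the members' values were known combined Spry, Spred and Dusp genes with Etv1 and Etv4. The Spry, Spred and Dusp families dampen receptor tyrosine kinase signals, and Etv1 and Etv4 do not belong to them. In this list 9 of 11 tested genes were above 0, where 53.6% of the wider fit was, and the median was 0.23. An unadjusted p below 0.05 with higher cKO values was reached by 2 of them, and by 6.23% of the wider fit. These were Etv4, already counted above with the other genes of undifferentiated spermatogonia, and Spry4 (log2 fold change 0.52, SE 0.22, adjusted p = 0.435, limma). The dampening families thus contributed Spry4 alone. Without control replicate 1, 0 of these 11 were at that level, and the median was 0.33.

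The list for the next stage, differentiating spermatogonia, also held genes of meiotic entry such as Stra8, Meioc and Prdm9, and its values were mixed. Of 12 genes 6 had a log2 fold change above 0, and 3 were at an unadjusted p below 0.05 with higher and 2 with lower cKO values, none of them called. Stra8, which is induced by retinoic acid, had 5.92, 4.53, 19.8 and 12.9 FPKM in controls and 2.03, 3.93, 2.93 and 4.70 FPKM in cKO testes, with overlap between control replicate 2 and cKO replicate 4 (log2 fold change -1.46, SE 0.43, adjusted p = 0.273, limma). Dmrtb1 (0.51, SE 0.15, adjusted p = 0.279) and the DNA methyltransferase gene Dnmt3b (0.29, SE 0.10, adjusted p = 0.330, limma) had higher cKO means. The other gene with higher values at that level was Sohlh2 (0.42, SE 0.17, adjusted p = 0.406, limma). The other with lower values was Meioc (-0.47, SE 0.18, adjusted p = 0.385, limma). Sohlh2, Meioc and Prdm9 were named after their values were seen. Of the 12, 8 were above 0 without control replicate 1, and 2 were at that level in each direction.

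**Figure D4:**
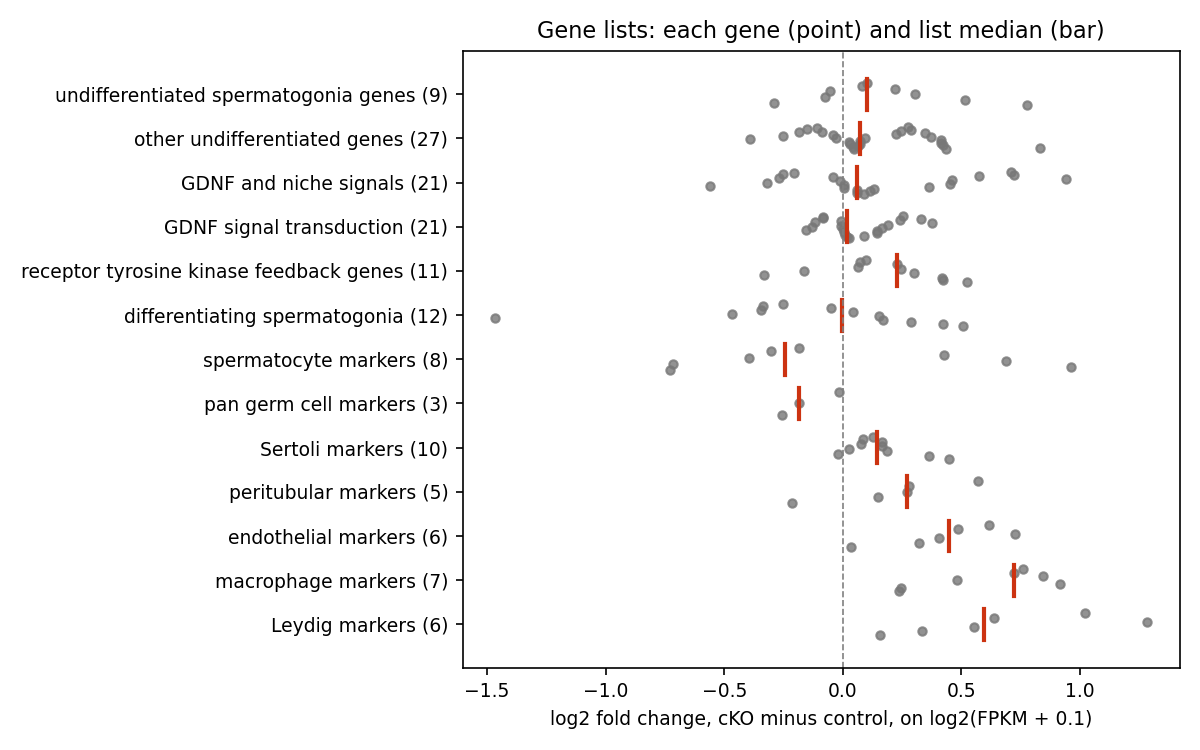
Log2 fold change of cKO over control on log2(FPKM + 0.1) for each tested gene (grey points, number of genes in brackets) and the median of each list (red bars). The members' median is 0.10, and the medians of the macrophage (0.72), Leydig (0.59) and endothelial (0.45) markers lie farther to the right.

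Markers of several other testis cells had higher values in the cKO libraries, as Etv5 and Lhx1 did. All 7 macrophage markers had a log2 fold change above 0 (5 at an unadjusted p below 0.05), and their summed level was 20.2 to 36.8 FPKM in controls and 40.0 to 52.7 FPKM in cKO testes. Examples were the lysozyme gene Lyz2 (log2 fold change 0.76, SE 0.23, adjusted p = 0.277) and the complement gene C1qb (0.91, SE 0.28, adjusted p = 0.284, limma). The 6 Leydig markers (sums 16.5 to 37.9 and 28.6 to 46.7 FPKM, 3 at that level), 6 endothelial markers (5.98 to 13.3 and 12.3 to 15.6 FPKM, 2 at that level) and 5 peritubular markers (44.8 to 75.0 and 74.0 to 104 FPKM, 1 at that level) overlapped slightly or widely. The 10 Sertoli markers summed to 1178 to 1588 FPKM in controls and 1537 to 1815 FPKM in cKO testes, with a median log2 fold change of 0.15 and 0 genes at that level. Without control replicate 1, 3 Sertoli markers were at that level with a median of 0.21, as were 2 peritubular, 2 Leydig, 4 macrophage and 1 endothelial markers. The median over all genes of that fit was 0.04. No marker of these lists was at 0 in every library, and no marker was called. Control replicate 4, the highest control for Etv5 and Lhx1, also had the highest control sum for macrophage, Leydig, endothelial and peritubular markers. The part of these cells in the Etv5 and Lhx1 values was not tested.

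Later germ cell markers were mixed. The 8 spermatocyte markers summed to 926 to 1458 FPKM in controls and 743 to 1152 FPKM in cKO testes, with a median log2 fold change of -0.24, and 2 were at an unadjusted p below 0.05 with higher and 3 with lower cKO values. That median was -0.14 without control replicate 1. The 2 with higher values were Meiob (means 16.3 FPKM in controls and 27.1 FPKM in cKO testes) and the low Hist1h1t (0.279 and 0.667 FPKM). The 3 with lower values were Ldhc (524 and 313 FPKM), Piwil1 (202 and 153 FPKM) and Ccna1 (1.65 and 0.964 FPKM). These genes were named after their values were seen, and none was called. The 3 genes expressed across germ cells summed to 519 to 655 and 446 to 622 FPKM. Spermatid markers summed to at most 1.17 FPKM. The 9 members themselves summed to 47.1 to 78.0 FPKM in controls and 51.3 to 56.4 FPKM in cKO testes, a sum in which Id4 of control replicate 1 weighs most.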

How the data were processed

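Total RNA of 8 synchronized mouse testes, 4 per group, was sequenced as paired ends. FPKM values were deposited by the authors, who made them with the provider's software. The processing notes name GRCm38 and mm10. The aligner, the counter and the use of strand are not given in the sources used here. The authors' own gene test used DESeq2, which was not run here. With it the paper reported more differentially expressed genes than were called in the main fits here.

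FPKM was analysed as log2(FPKM + 0.1) with limma 3.58.1 (R 4.3.3), eBayes with a mean trend and Benjamini-Hochberg adjustment over all genes of the fit, unpaired and with no covariate. Each FPKM value times gene length came out as a whole number of fragments (100% within 0.02), which gave the depth, the Poisson intervals and an added voom fit. Replicates are separate mice. Even for the least different replicate pair, the mean squared difference was 3.94 times that expected from sampling noise. The members and the lists were chosen with earlier results of these data known. Genes named were the members, up to 3 genes of lowest p per list, the 3 genes most like Gfra1, Spdya and Ddx4, with exceptions stated. Other marker lists are given by counts, medians and sums. Alternatives were other pseudocounts, filters, scalings, weights, a replicate block and leaving out each library.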

Additional observations from a re-analysis of the deposited data

Results flagged for a closer look

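In groups of 4, a library was singled out when its gap to the nearest other library exceeded Dixon's 95% limit for its share of the range. Of 46 groups examined 3 had such a library, and chance gives about 2.3. Gdnf was at 3.57 FPKM in cKO replicate 4 against 2.45 FPKM in the next cKO library. Csf1r was at 3.13 FPKM in the same library against 2.54 FPKM in the next. The mitochondrial share was 0.464% in control replicate 1 against 2.97% in the next control.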

How the results depend on the processing

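Over 17 alternatives no member was called, and Etv5, Lhx1, Gfra1, Ret and Eomes kept a positive log2 fold change. Leaving out each library gave 0.63 to 0.98 for Etv5, 0.44 to 0.60 for Lhx1, 0.21 to 0.36 for Gfra1, 0.02 (without cKO replicate 2) to 0.24 (without cKO replicate 1) for Ret and 0.13 (without control replicate 4) to 0.34 (without cKO replicate 2) for Eomes. Over all alternatives the adjusted p (limma) ran from 0.0345 to 0.620 for Etv5, from 0.255 to 0.862 for Lhx1 and from 0.191 to 0.938 for Gfra1. With a pseudocount of 1, Lhx1 was at 0.16 and Eomes at 0.05.

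The sign turned for Id4, Zbtb16, Bcl6b and Nanos2. Leaving out each library gave -0.567 (without control replicate 4) to 0.0261 (without control replicate 1) for Id4, and -0.0700 (without control replicate 1) to 0.217 (without cKO replicate 1) for Zbtb16. It gave -0.266 (without control replicate 1) to 0.0816 (without control replicate 4) for Bcl6b, and -0.271 (without cKO replicate 3) to 0.276 (without cKO replicate 1) for Nanos2. Nanos2 was at 0.0949 with array weights and 0.0052 with a pseudocount of 1. Zbtb16 also turned without cKO replicate 2 or control replicate 3, Bcl6b without cKO replicate 1 or control replicate 2, and Nanos2 without control replicate 2. The cause was not tested.

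The number of genes called under the study's filter, 2, became 57 with array weights, 1 after centring on the autosomal median and 1 with TPM. It became 0 to 3 on leaving out a library (0 without control replicate 2 or 3 or cKO replicate 1, 3 or 4). It was 8 with all biotypes, a setting that also used the wider limit of a mean above 0.1 FPKM over the libraries.

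With the replicate number as a block, 0 genes were called. Deviations of same-numbered libraries from their group means correlated at 0.272, 0.146, 0.0646 and 0.395 for replicates 1 to 4, and 6 of 8 libraries correlated best with their own number. This is a hint of pairing in the data, and the paper states that control mice were littermates of the cKO mice. No label ties a replicate number to a litter or batch, and not every pair exceeded 0.1. Pairing was therefore not settled, and the main fits are those without the block. With the block, Etv5 had an adjusted p = 0.126 and Lhx1 0.341 (limma), and no member's call was altered.

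The counts over gene lists without control replicate 1 were chosen after seeing the data. Without that library 1 member (Etv5) was at an unadjusted p below 0.05 and 6 of 9 were above 0. Depth limits Lhx1, Nanos2 and Eomes, whose libraries held 2 to 31 fragments.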
